A study of Mus musculus with 6 samples.

Results

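The 9 genes described here are the 3 Pim kinase genes (Pim1, Pim2 and Pim3), 4 genes of the Myc network (Myc, Mycn, Max and Mxd3), the transcription factor gene Stat3 and its feedback inhibitor gene Socs3. They are 9 of 21877 gene symbols in the deposited table, taken by symbol. Pim1 was chosen by its higher RPKM in KI than in WT in earlier results of these data, and the others are its paralogs and the genes of the pathways it belongs to. The differences between genotypes are therefore described, without p-values, for all 9.

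Expression was measured by RNA sequencing of mouse embryos labelled embryonic day 7.5, in 3 libraries from embryos with the S254D knock-in of Rnf111 (KI) and 3 libraries from wild-type embryos (WT). Rnf111 encodes Arkadia, a ubiquitin ligase that promotes Nodal and TGF-beta signalling, and the knock-in replaces a serine with an aspartate. The sources used here do not give strain, zygosity, sex or litter, or say how many embryos went into a library, so the spread between libraries may be partly technical. Values are RPKM, read counts scaled to exon length and to library depth, which allows levels of different genes to be set side by side.

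STAT3 is a transcription factor that is phosphorylated by JAK kinases when cytokines of the IL-6 and LIF type bind receptors that contain gp130. Among its known targets are Socs3, whose product shuts the receptor down again, and Pim1. Pim kinases are serine/threonine kinases that are active as soon as they are made, so their output follows the amount of transcript and protein. They favour survival, translation and cell cycle entry, and they cooperate with Myc in lymphoid tumours of the mouse. Myc and N-Myc bind E-box DNA (CACGTG) as dimers with Max, and proteins of the Mxd family compete for Max and repress the same sites. In the early embryo Myc levels are tied to growth and to the competition between epiblast cells.

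The promoter windows below are shown because they are those of this set that hold a core of the STAT site or the E-box, the letters through which the factors of this set read DNA. Promoter sequences (RefSeq, build GRCm38.p6, from 250 bases before to 50 bases after a start site) were matched for 8 of the 9 genes, with 2 start sites for Pim1 and 9 windows in all; Myc was not matched. Capitals mark the match. The motifs searched were TTCNNNGAA, the core of a STAT site, and CACGTG, the E-box; both read the same on either strand, and they do not overlap in these windows. TTCNNNGAA occurred in 8.30% and CACGTG in 7.15% of 32851 promoter windows of this length.
Socs3: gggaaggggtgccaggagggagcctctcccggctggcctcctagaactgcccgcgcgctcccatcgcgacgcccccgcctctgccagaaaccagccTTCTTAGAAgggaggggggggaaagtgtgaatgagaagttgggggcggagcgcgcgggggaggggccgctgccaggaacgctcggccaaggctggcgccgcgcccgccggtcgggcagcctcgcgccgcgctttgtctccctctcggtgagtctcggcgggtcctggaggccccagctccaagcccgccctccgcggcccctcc
Pim1: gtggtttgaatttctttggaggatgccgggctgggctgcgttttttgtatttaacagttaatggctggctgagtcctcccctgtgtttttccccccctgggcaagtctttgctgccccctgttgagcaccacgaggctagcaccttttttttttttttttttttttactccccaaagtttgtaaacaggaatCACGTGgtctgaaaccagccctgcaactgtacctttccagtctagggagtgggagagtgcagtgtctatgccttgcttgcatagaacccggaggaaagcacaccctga
Max: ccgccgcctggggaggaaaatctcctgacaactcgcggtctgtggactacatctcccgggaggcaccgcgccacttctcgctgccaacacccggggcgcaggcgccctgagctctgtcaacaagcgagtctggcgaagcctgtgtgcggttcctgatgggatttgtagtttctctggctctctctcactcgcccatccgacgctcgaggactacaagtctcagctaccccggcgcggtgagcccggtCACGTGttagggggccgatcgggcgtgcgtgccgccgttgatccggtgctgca
The Socs3 window (chr11:117969317-117969616, minus strand) held TTCTTAGAA, whose first base lies at -154 from the start site. The Pim1 window (chr17:29492835-29493134, plus strand, the downstream start site) held CACGTG at -58. The Max window (chr12:76962199-76962498, minus strand) held CACGTG at -3. The other 6 windows held neither motif. A match is a run of letters and not a measured binding site, and a window without a match says nothing about binding elsewhere.

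A pair of libraries stood apart from the other 4, and this touched most of the genes described here. Over 10104 tested genes (at least 1 RPKM in at least 3 libraries), log2 values of WT 3 correlated with those of the other libraries at Pearson's r of 0.939 to 0.952, those of KI 2 with KI 1, KI 3, WT 1 and WT 2 at 0.963 to 0.973, and those 4 with one another at 0.988 to 0.996. In WT 3 the loss grew with the GC content of the transcript. Of 5 equal groups of genes by GC content, in the highest (54.8% to 76.3%) the median of WT 3 minus the mean of WT 1 and WT 2 was -0.72 on the log2(RPKM + 1) scale, against 0.04 in the lowest (20.6% to 43.5%). KI 2 showed a smaller slope, with -0.12 in the highest and -0.02 in the lowest group, measured against KI 1 and KI 3. WT 3 was the lowest of the 6 libraries in 51.8% of all tested genes and in 8 of the 9 genes described here, all but Pim1. The transcripts of the 9 genes ranged in GC content from 49.6% (Max) to 61.9% (Pim3). Depth was about 9763000 to 11527000 reads in KI and 12677000 to 13559000 in WT. KI 2 was also low in yolk sac endoderm transcripts, with a summed level over 10 markers such as Apoa1 and Ttr of 28.2 RPKM, against 555 to 1489 in the other 5 libraries, and in 8 heart muscle markers such as Myl7 (113, against 380 to 468). Rnf111 itself was at 2.02 ± 0.54 RPKM in KI embryos and 2.13 ± 0.40 in WT embryos (SD, n = 3 each), which does not check the labels because the allele alters the protein. Results below are given with all libraries and, where they differ, without KI 2 and WT 3.

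**Figure D1:**
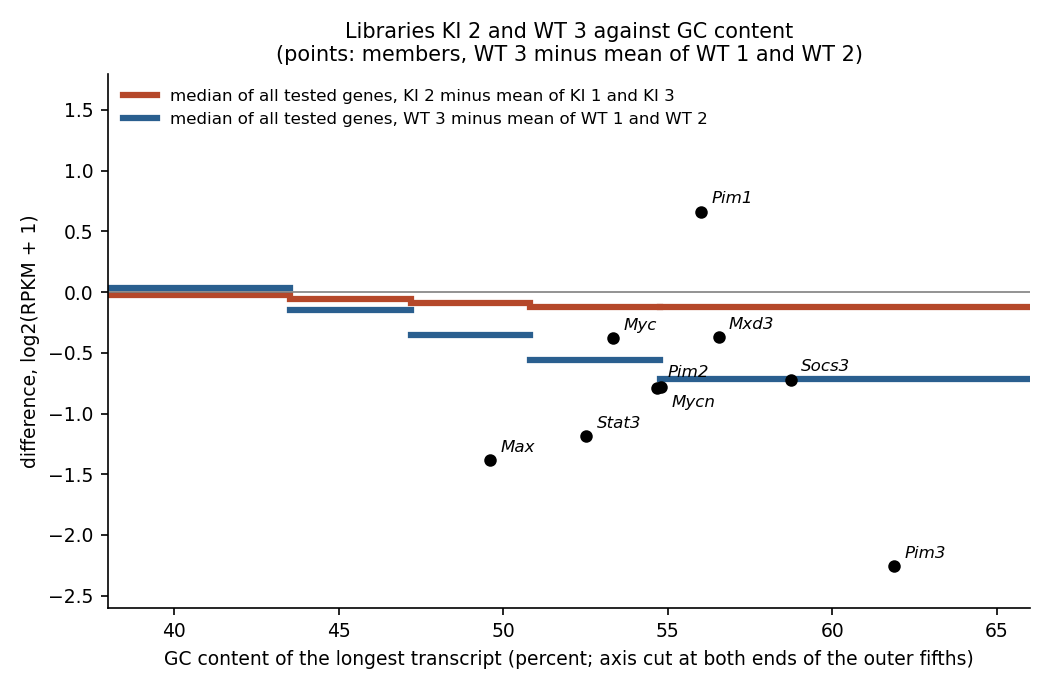
Horizontal bars give the median difference on the log2(RPKM + 1) scale within each of 5 equal groups of tested genes by GC content, for KI 2 against KI 1 and KI 3 (red) and for WT 3 against WT 1 and WT 2 (blue). Black points give WT 3 minus the mean of WT 1 and WT 2 for each of the 9 genes: Pim1 lies above 0, at 0.66, and the other 8 below it, down to -2.25 for Pim3.

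The kinase genes come first. Pim1 was at 16.1, 15.4 and 16.4 RPKM in KI 1, 2 and 3, against 8.08, 6.71 and 12.2 RPKM in WT 1, 2 and 3. The 3 KI libraries were close together and all above the 3 WT libraries, of which WT 3 was the highest. The means were 15.9 ± 0.52 RPKM in KI embryos and 9.01 ± 2.88 in WT embryos (SD, n = 3 each), from 286 to 636 reads per library, so counting error was small beside the spread in WT. The KI mean was 1.77 times the WT mean, and the log2 difference was 0.80 (SE 0.23, 95% interval 0.26 to 1.33). Without KI 2 and WT 3 the difference was 1.04 (95% interval 0.78 to 1.30). In a tissue as mixed as a whole embryo, more transcript per cell and more cells that express the gene cannot be told apart.

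Pim1 was the exception to the pattern of WT 3. Its transcript has a GC content of 56.0%, yet its level in WT 3 was 1.65 times the mean of WT 1 and WT 2. When the GC trend of each library was subtracted, a step chosen after seeing the data, WT 3 moved further up relative to the others. The corrected log2 levels were 3.92, 4.04 and 4.02 in KI 1, 2 and 3, against 3.03, 2.78 and 4.26 in WT 1, 2 and 3. On that scale WT 3 lay above all KI libraries, the groups overlapped, and the difference was 0.63 (95% interval -0.19 to 1.46). The low WT values of Pim1 are thus those of WT 1 and WT 2, the closest pair of libraries in the set, whose reads gave the smallest mean chi-square (3.70 per gene) of any pair, above the value of about 1 from sampling noise.

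Pim2, an X-linked paralog of Pim1, was at a lower level with the same order of groups. It was at 2.49, 2.71 and 2.95 RPKM in KI 1, 2 and 3, against 1.75, 2.09 and 0.686 RPKM in WT 1, 2 and 3. Every KI value exceeded every WT value, with WT 3 far below the other WT libraries. The means were 2.72 ± 0.23 RPKM in KI embryos and 1.51 ± 0.73 in WT embryos (SD, n = 3 each), from 26 to 95 reads per library. The log2 difference was 0.61 (SE 0.25, 95% interval 0.03 to 1.199), and without KI 2 and WT 3 it was 0.35 (0.03 to 0.67). After the GC correction the groups of Pim2 stayed separate, at 1.64 to 1.90 in KI and 1.24 to 1.48 in WT, with a difference of 0.47 (0.13 to 0.80). Because the gene lies on the X chromosome, the Y-linked transcripts bear on it: their summed level over 4 genes was 7.29, 50.9 and 0 RPKM in KI 1, 2 and 3, against 41.0, 42.5 and 62.0 in WT 1, 2 and 3. KI 2, with a Y-linked level in the WT range, had a Pim2 level between those of KI 1 and KI 3. This library also stood apart in yolk sac and heart markers, so its value cannot tell sex from genotype. With the Y-linked level as a covariate the Pim2 difference was 0.51 with an interval that includes 0 (-0.37 to 1.40). The same covariate widened the interval of Pim1, which is not X-linked, so that it nearly reached 0 (difference 0.81, 95% interval 0.002 to 1.61).

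Pim3, the third paralog, did not separate the genotypes. It was at 10.4, 6.63 and 5.86 RPKM in KI 1, 2 and 3, against 7.58, 7.80 and 0.820 RPKM in WT 1, 2 and 3. The low value of WT 3, from 27 reads where the other libraries had 157 to 290, made the whole difference. The means were 7.62 ± 2.42 RPKM in KI embryos and 5.40 ± 3.97 in WT embryos (SD, n = 3 each), and the log2 difference of 0.71 (95% interval -0.71 to 2.12) became 0.02 (-0.53 to 0.58) without KI 2 and WT 3 and -0.05 without WT 3 alone. Pim3 has the highest GC content of the 9 transcripts.

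Summed over the 3 kinase genes, Pim transcripts were at 28.9, 24.7 and 25.2 RPKM in KI 1, 2 and 3, against 17.4, 16.6 and 13.7 in WT 1, 2 and 3. Pim1 made up 55.5%, 62.2% and 65.1% of this sum in KI 1, 2 and 3, against 46.4%, 40.4% and 89.0% in WT 1, 2 and 3. Pim3 exceeded Pim2 in all 6 libraries, and in WT 1 and WT 2 it was at about the level of Pim1, while WT 3 held almost only Pim1. In WT 3 the order of Pim3 and Pim2 rests on 27 and 26 reads, whose counting intervals overlap.

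**Figure D2:**
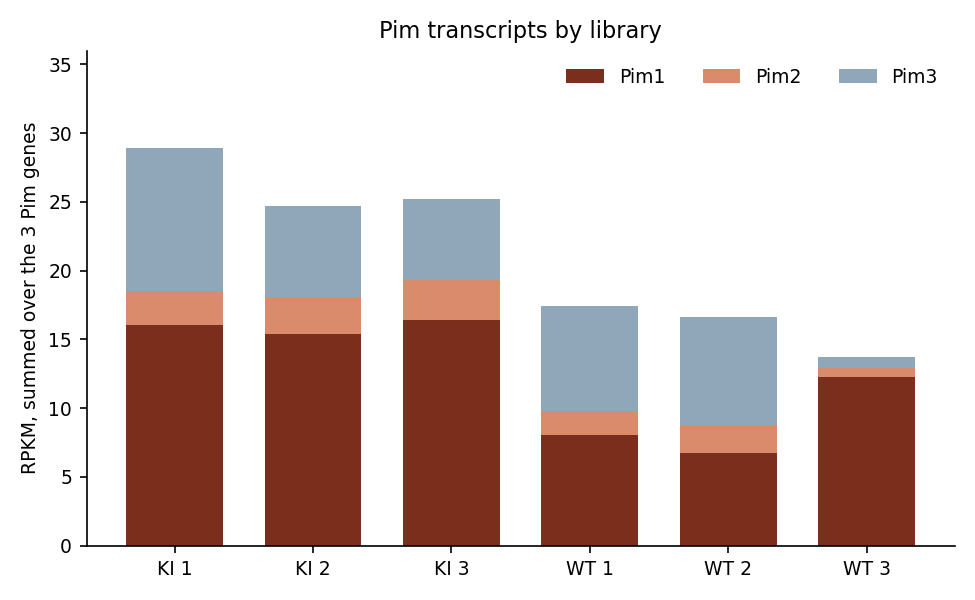
Bars give the summed RPKM of Pim1, Pim2 and Pim3 in each library, KI 1 to 3 and then WT 1 to 3, with the part of each gene in its own colour. The sum runs from 24.7 to 28.9 RPKM in KI embryos and from 13.7 to 17.4 in WT, and in WT 3 the part of Pim3 nearly vanishes.

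The Myc network was led by Myc, the most abundant of the 9 genes, whose mean over the 6 libraries exceeded that of 90.9% of tested genes. Myc was at 81.9, 67.3 and 73.3 RPKM in KI 1, 2 and 3, against 70.5, 69.9 and 53.7 RPKM in WT 1, 2 and 3. The groups overlapped, with 74.2 ± 7.35 RPKM in KI embryos and 64.7 ± 9.56 in WT embryos (SD, n = 3 each). The log2 difference was 0.20 (SE 0.17, 95% interval -0.19 to 0.59), which leaves room for KI levels of Myc somewhat below or well above those of WT.

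Mycn, the paralog that acts in neural and mesodermal progenitors, stood below Myc in all 6 libraries. It was at 24.1, 16.6 and 22.6 RPKM in KI 1, 2 and 3, against 25.5, 22.4 and 13.5 RPKM in WT 1, 2 and 3. Both groups held a single low library, KI 2 and WT 3, and otherwise covered the same range. The log2 difference was 0.07 (SE 0.27, 95% interval -0.56 to 0.70), and its sign turned in 6 of 17 alternative settings. Myc made up 76.4% to 80.2% of the summed Myc and Mycn level in KI and 73.5% to 79.9% in WT, so the balance of the 2 paralogs was alike in range.

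Max, the obligate partner of the Myc proteins, was lower in KI than in WT 1 and WT 2. It was at 9.11, 7.83 and 6.85 RPKM in KI 1, 2 and 3, against 15.2, 16.4 and 5.43 RPKM in WT 1, 2 and 3. WT 3 lay below all KI libraries, so the groups overlapped. The means were 7.93 ± 1.13 RPKM in KI embryos and 12.3 ± 6.01 in WT embryos (SD, n = 3 each), from 265 to 747 reads per library, and the log2 difference was -0.46 (SE 0.38, 95% interval -1.36 to 0.44). Without KI 2 and WT 3 the difference was -0.91 (-1.23 to -0.60), a KI mean 0.505 times the WT mean. It stayed negative in all 17 alternative settings, the GC correction included (-0.53, 95% interval -1.19 to 0.14). The summed level of Myc and Mycn was 11.6, 10.7 and 14.0 times that of Max in KI 1, 2 and 3, against 6.31, 5.64 and 12.4 times in WT 1, 2 and 3. WT 3 was on the KI side for this ratio.

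Mxd3, a Max-binding repressor that is linked to cycling progenitors, was at a low level. It was at 1.43, 1.30 and 1.28 RPKM in KI 1, 2 and 3, against 1.90, 1.37 and 1.03 RPKM in WT 1, 2 and 3. These values rest on 30 to 60 reads per library, and the KI range lay inside the WT range. The log2 difference was -0.04 (SE 0.18, 95% interval -0.47 to 0.39).

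Stat3 was a low transcript in every library, with a mean above that of only 18.4% of tested genes. It was at 2.28, 1.97 and 1.97 RPKM in KI 1, 2 and 3, against 2.70, 2.26 and 0.526 RPKM in WT 1, 2 and 3. The KI values lay within the WT range, which WT 3 widened. The log2 difference was 0.22 (SE 0.33, 95% interval -0.56 to 0.99) and turned to -0.16 (-0.48 to 0.16) without KI 2 and WT 3.

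Socs3 was the lowest of the 9 genes on average and the one with the largest ratio. It was at 1.503, 1.63 and 1.05 RPKM in KI 1, 2 and 3, against 0.675, 0.791 and 0.0510 RPKM in WT 1, 2 and 3. All KI values lay above all WT values, from 50, 46 and 35 reads in KI 1, 2 and 3, against 26, 29 and 2 reads in WT 1, 2 and 3. Counting error alone puts the Socs3 level of KI 3 between 0.732 and 1.46 RPKM and that of WT 2 between 0.530 and 1.14 (exact Poisson intervals, 95%), so the nearest libraries of the 2 genotypes overlap at this depth. Socs3 passed the expression minimum only through the KI libraries, so it could hardly be tested without being higher in KI. The means were 1.39 ± 0.30 RPKM in KI embryos and 0.506 ± 0.398 in WT embryos (SD, n = 3 each), and the log2 difference was 0.70 (SE 0.24, 95% interval 0.13 to 1.27). Without KI 2 and WT 3 it was 0.39 (0.02 to 0.76), and after the GC correction 0.52 (0.18 to 0.86), with corrected levels of 0.957 to 1.37 in KI and 0.578 to 0.659 in WT. WT 3, with 2 reads, lay at -0.72 against the mean of WT 1 and WT 2 before the correction and was the highest WT library after it. Its corrected level came mostly from the subtracted trend, so the narrow WT range and interval are partly made by the correction. With the Y-linked level as a covariate the Socs3 difference was 0.82 with an interval that includes 0 (-0.04 to 1.67). Socs3 was at 0.659, 0.828 and 0.534 times the level of Stat3 in KI 1, 2 and 3, against 0.250, 0.350 and 0.0969 times in WT 1, 2 and 3, an order that carries over from Socs3 itself.

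**Figure D3:**
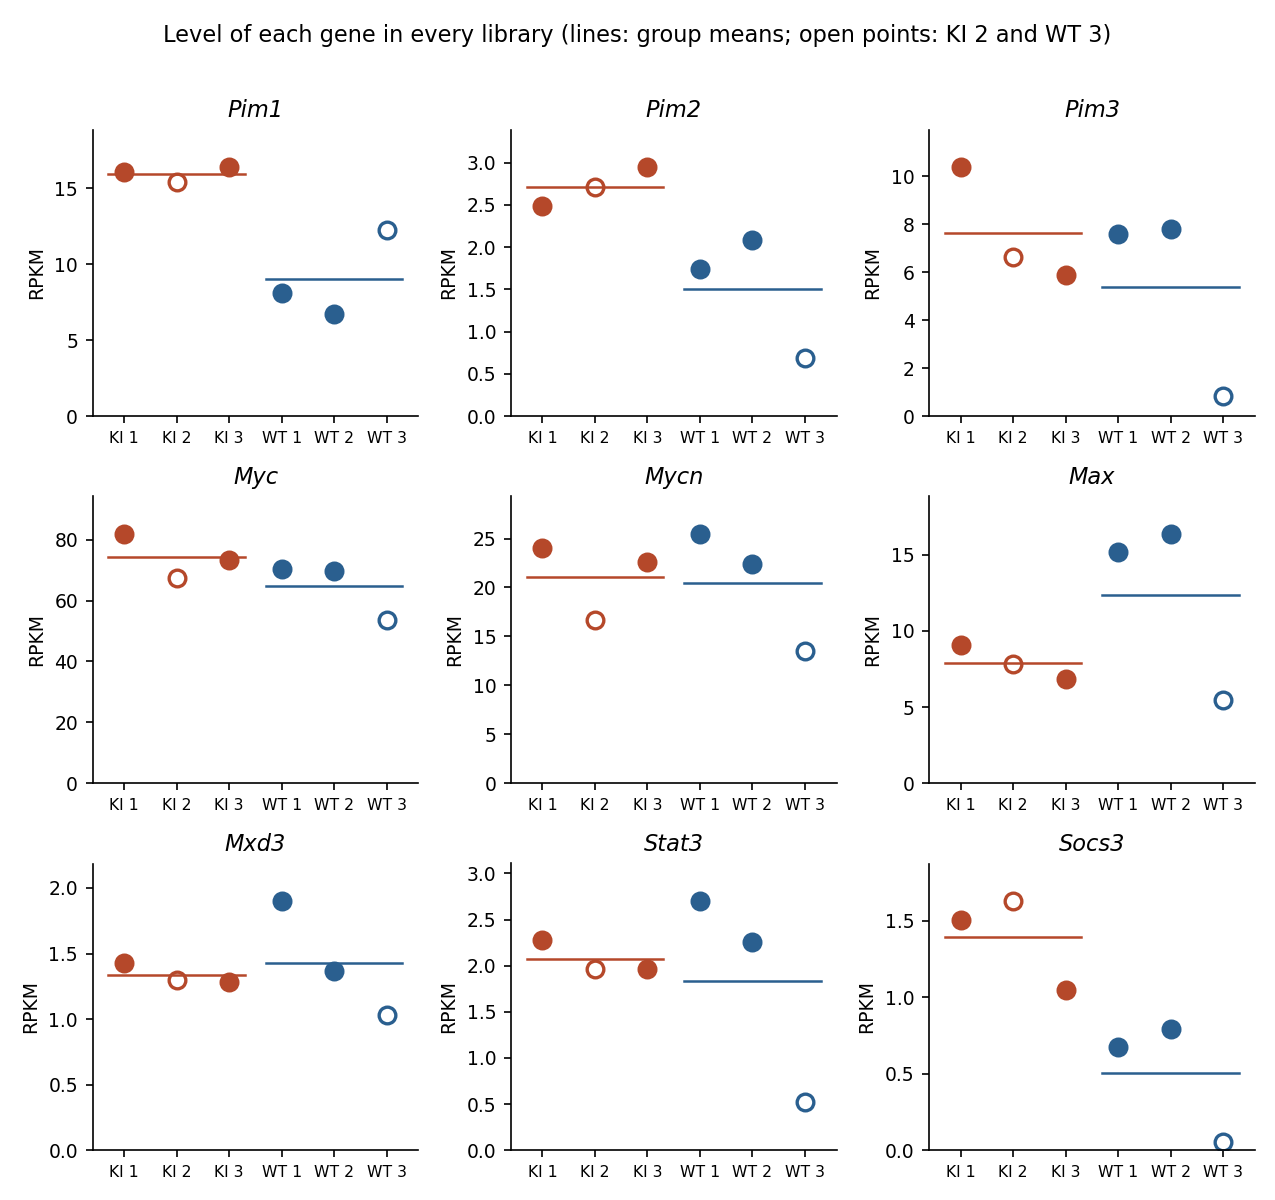
Each panel plots the RPKM of a gene in KI 1 to 3 (red) and then in WT 1 to 3 (blue), with a line at the group mean and open points for KI 2 and WT 3. Pim1, Pim2 and Socs3 are the panels in which no KI point lies below a WT point, and in every panel but Pim1 the lowest point is WT 3.

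By level, the order of the genes in KI was Myc, Mycn, Pim1, Max, Pim3, Pim2, Stat3, Socs3 and Mxd3. In KI the ranges of Max and Pim3 overlapped, as did those of Socs3 and Mxd3, and the other neighbours did not. In WT the order was Myc, Mycn, Max, Pim1, Pim3, Stat3, Pim2, Mxd3 and Socs3, and neighbours overlapped everywhere except between Myc and Mycn and between Mxd3 and Socs3. The places of Pim1 and Max were exchanged between the genotypes, with Pim1 above Max in all 3 KI libraries and in WT 3, and below it in WT 1 and WT 2.

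Over all 6 libraries, 0 of the 9 genes passed an adjusted p under 0.05 (limma on log2(RPKM + 1), Benjamini-Hochberg over all tested genes), as did 0.0% of the 10104 tested genes. The unadjusted p was under 0.05 for 121 genes, and the voom form of limma on recovered reads also called 0. The KI libraries lay wholly above the WT libraries in 3 of the 9 genes and in 3.8% of tested genes, and wholly below in 0 of the 9 and in 2.74% of tested genes. After the GC correction 2 of the 9, Pim2 and Socs3, had KI wholly above WT, against 4.31% of tested genes, and 0 had KI wholly below, against 3.55%. Leaving out WT 3 gave 3 of the 9 wholly above (7.23% of tested genes) and 1, Max, wholly below (15.8%). Leaving out KI 2 gave 4 wholly above, with Myc added (12.0%), and 0 wholly below (6.63%). Without KI 2 and WT 3 the same test called 2 of the 9, Pim1 as higher and Max as lower in KI, and 0.406% of tested genes. Weighting each library by its spread called the same 2, and 0.92% of tested genes; the weights of KI 1 (7.75) and WT 2 (3.41) dominate that fit, and their estimation stopped before it converged. Because these contrasts chose the set, nothing is read from these counts. In the comparison without KI 2 and WT 3 the Y-linked level also differed, at 7.29 and 0 RPKM in KI against 41.0 and 42.5 in WT, so genotype and sex cannot be told apart there.

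**Figure D4:**
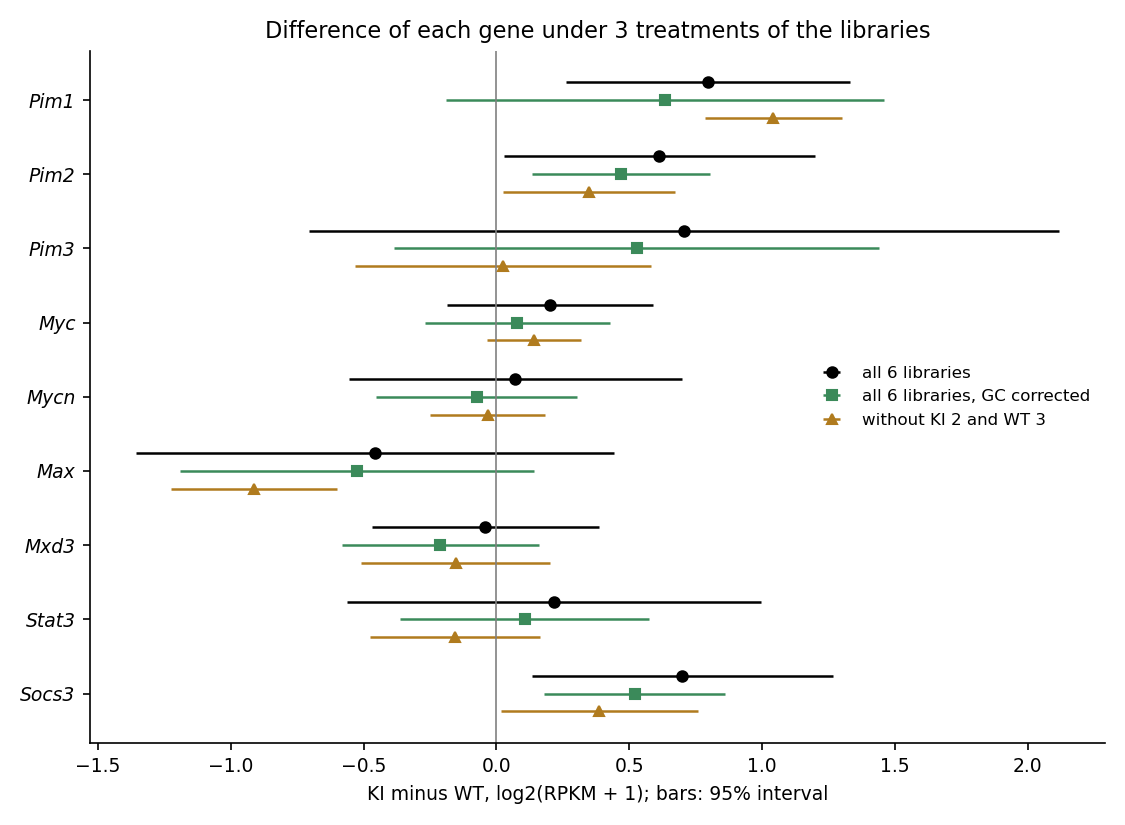
Points give KI minus WT on the log2(RPKM + 1) scale with 95% intervals, for all 6 libraries (black), after the GC correction (green) and without KI 2 and WT 3 (ochre). The differences of Pim1, Pim2 and Socs3 stay above 0 and that of Max below it in all 3, while Pim3, at 0.71, moves to 0.02 without KI 2 and WT 3, and Mycn and Stat3 change sign.

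Markers of other cell types were set beside these values. The 12 immediate early genes, such as Fos and Egr1, respond to stress and growth factors as Socs3 and Myc do. Their summed level was 188, 234 and 81.7 RPKM in KI 1, 2 and 3, against 145, 141 and 109 in WT 1, 2 and 3, and the groups overlapped. Ier2 alone, at 36.4 to 131 RPKM over the 6 libraries, made up the largest part of this sum. Of the 12 genes, 8 reached the expression minimum. In 3.8% of tested genes every KI library lay above every WT library, as for Pim1, Pim2 and Socs3. The same held for 3 of the 12 genes, including Egr2, which did not reach the minimum. These were Jun, at 7.64 to 14.3 RPKM in KI embryos and 2.71 to 6.93 in WT, Nr4a1, at 1.87 to 2.70 in KI and 0.610 to 1.604 in WT, and Egr2, at 0.934 to 2.10 in KI and 0.133 to 0.868 in WT, all named after their values were seen. Among the KI libraries Socs3 was highest in KI 2 and lowest in KI 3, the order of the summed immediate early level. This order did not extend to all 6 libraries. WT 1 had a higher sum than WT 2 but a lower Socs3 level, at 0.675 against 0.791 RPKM. KI 3 had the lowest sum of the 6 libraries, with Socs3 at 1.05 RPKM, above all WT libraries. Both of these departures rest on Ier2, which was at 101 RPKM in WT 1, 94.8 in WT 2 and 36.4 in KI 3, its lowest library. They say nothing of the other genes on the list. Pim1 and Socs3 are also expressed in blood cells. The 6 macrophage markers summed to 6.88, 6.20 and 9.60 RPKM in KI 1, 2 and 3, against 5.29, 6.07 and 3.73 in WT 1, 2 and 3. Most of that sum was Cd68, at 5.62 to 9.32 in KI and 2.99 to 4.83 in WT, while Ptprc was listed at 0 in all libraries and Csf1r reached no more than 0.211. The 7 primitive blood markers summed to 2060 to 2443 RPKM in KI embryos and 1780 to 2633 in WT. The 9 decidua markers summed to 35.4 to 54.4 in KI and 59.6 to 83.6 in WT, nearly all from Lum and Hoxa10, with Gzmd and Gzme listed at 0 and Prl8a2 at no more than 0.320. The trophoblast hormone genes Prl3d1 and Prl2c2 were listed at 0. The part of these cell types and of the immediate early genes in the differences was not tested.

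The genes whose centred log2(RPKM + 1) profile over the 6 libraries lay close to that of Pim1 included Stmn2 and Kdm6a, among 9846 genes compared by root mean square distance. Stmn2, a tubulin-binding protein of neurons, lay at a distance of 0.18 and was at 2.48 to 3.48 RPKM in KI embryos and 0.901 to 3.05 in WT. Kdm6a, an X-linked histone demethylase, lay at 0.19 and was at 6.67 to 8.48 in KI and 3.73 to 5.595 in WT. The nearest of the other 8 genes to Pim1 was Myc, at 0.47 and rank 1770. Pim2 and Socs3 were each other's nearest within the set, at 0.16, both with a low WT 3. Socs3 was at rank 94 from Pim2, and Pim2 at rank 51 from Socs3. The log2(RPKM + 1) scale shrinks distances between low genes, so 0.16 and 0.47 are not like for like.

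The wider pathway was examined through 7 lists, in which 0 genes passed in either direction over all 6 libraries. In the receptor arm, 6 of 18 genes reached the expression minimum. The ligand genes on this list were almost silent, with Lif at no more than 0.0863 RPKM, Il6 at no more than 0.0716 and Il11 above 0 only in KI 2, at 0.738. Other ligands of these receptors were not looked at. Lifr, the LIF receptor, averaged 10.05 ± 3.85 RPKM in KI embryos and 9.03 ± 2.88 in WT, the kinase gene Jak1 at 12.9 ± 0.43 and 11.0 ± 3.86, and Jak2 at 2.06 ± 0.28 and 2.07 ± 0.11 (SD, n = 3 each). Ptpn11, a phosphatase that relays the receptor signal to the ERK pathway, averaged 3.62 ± 0.32 in KI embryos and 3.51 ± 0.16 in WT. Of the 6, 5 had a positive and 1 a negative difference, with a median of 0.10, against 5940 positive and 4164 negative differences and a median of 0.05 over all tested genes.

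Among STAT inhibitors, 7 of 10 tested genes had a positive difference and 3 a negative one (median 0.14). Ptpn2, a phosphatase, averaged 33.7 ± 2.71 RPKM in KI embryos and 34.7 ± 1.41 in WT, Ptpn1 at 16.8 ± 2.35 and 13.9 ± 4.80, and the STAT-binding SUMO ligase genes Pias2 at 18.8 ± 3.84 and 16.6 ± 0.51 and Pias1 at 16.1 ± 3.41 and 17.2 ± 0.87 (SD, n = 3 each). Among other known STAT3 targets, 8 of 11 tested genes had a positive difference, with a median of 0.28, which was 0.07 without KI 2 and WT 3 and 0.22 after the GC correction. Mcl1, a survival factor, averaged 29.5 ± 11.8 RPKM in KI, with 42.5 in KI 2, and 23.0 ± 0.84 in WT. Birc5 was at 155 ± 18.5 in KI and 163 ± 26.8 in WT, and Hif1a at 28.9 ± 2.76 and 26.9 ± 2.99. Bcl2l1, another survival factor, ranged from 19.5 to 22.7 RPKM in KI embryos and 2.06 to 23.0 in WT, and the transcription factor gene Junb, named after its values were seen, at 4.52 to 10.02 in KI and 0.321 to 4.53 in WT. These had the highest differences of this list, and in both the lowest library was WT 3. The cyclin D1 gene Ccnd1, also named after its values were seen, was at 10.5, 15.2 and 11.8 RPKM in KI 1, 2 and 3, against 17.7, 18.5 and 4.62 in WT 1, 2 and 3, and was the 1 gene of the 7 lists that passed, as lower in KI, without KI 2 and WT 3.

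On the Myc side, the groups of the other dimer partners overlapped. Mlx, the Max-like factor, was at 14.9 ± 2.48 RPKM in KI embryos and 14.5 ± 4.41 in WT, the Max-binding repressor gene Mga at 5.67 ± 0.58 and 5.502 ± 0.26, Mycl at 5.98 ± 2.76 and 3.98 ± 1.34, and the repressor gene Mxi1 at 2.96 ± 0.57 and 2.41 ± 0.37 (SD, n = 3 each), and 5 of 6 tested genes had a positive difference (median 0.12). All 12 tested genes for Myc cofactors and turnover had a positive difference (median 0.21), but 10 of the 12 were lowest in WT 3, and without WT 3 the median was -0.05, where that of all tested genes was -0.05 too. After the GC correction 9 of the 12 were positive with a median of 0.15, against -0.01 over all tested genes, and without KI 2 and WT 3 the medians were 0.04 for the list and -0.02 for all tested genes. The helicase genes Ruvbl1 and Ruvbl2 were at 159 ± 34.1 and 84.2 ± 12.1 RPKM in KI embryos and at 156 ± 27.2 and 80.4 ± 11.2 in WT, and the kinase gene Aurka, which stabilises N-Myc, at 82.6 ± 9.38 in KI and 75.6 ± 33.2 in WT. Smarcb1, a chromatin remodelling subunit that binds Myc, ranged between 19.3 and 23.0 in KI and between 10.02 and 20.6 in WT.

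Known Myc targets split into 12 positive and 9 negative differences of 21 tested (median 0.02). The nucleolar genes Npm1, at 1483 ± 123 RPKM in KI embryos and 1807 ± 897 in WT, and Ncl, at 144 ± 16.7 and 146 ± 14.7, and the cell cycle kinase gene Cdk4, at 377 ± 6.30 and 323 ± 114, overlapped (SD, n = 3 each). Srm, a polyamine synthesis gene, averaged 94.7 ± 27.9 in KI and 108 ± 21.7 in WT. Nme1 was the 1 tested gene of the 7 lists with separate groups, at 64.1 to 68.6 RPKM in KI embryos and 68.7 to 73.3 in WT, and was named after its values were seen. Its log2 difference was -0.07 (95% interval -0.36 to 0.23). Over all tested genes, 2.74% had KI wholly below WT. Of 13 tested genes for Pim substrates, 10 had a positive difference (median 0.14, and 0.03 after the GC correction). Eif4ebp1, a translation repressor, averaged 74.9 ± 4.58 RPKM in KI embryos and 67.9 ± 13.8 in WT, Eif4b at 32.7 ± 4.996 and 31.4 ± 4.55, Mdm2 at 20.8 ± 1.33 and 17.98 ± 2.68, and the chromatin gene Cbx3 at 75.9 ± 13.0 and 98.9 ± 52.8.

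**Figure D5:**
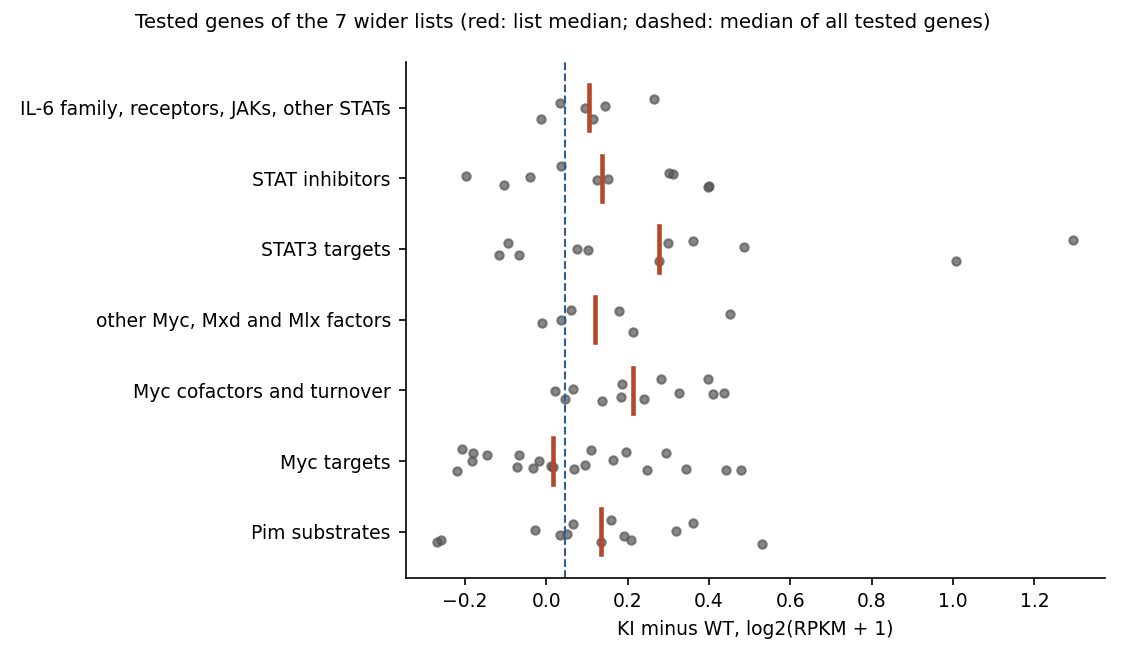
Each point is the KI minus WT difference of a tested gene on the log2(RPKM + 1) scale, in rows by list, with the list median in red and the median of all tested genes (0.05) as a dashed line. The list medians lie between 0.02 for Myc targets and 0.28 for STAT3 targets, and 0 genes passed the threshold.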

How the data were processed

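Per the labels' protocols, poly(A) RNA was taken up on oligo(dT) beads for SMARTER libraries. Per the submitters' processing notes the build was GRCm39. Aligner, counter, annotation and strand use are not given in the sources used here, so reads of a gene and of an overlapping or antisense gene cannot be told apart. The labels call the table raw counts, but the deposited values are not whole and were taken as RPKM made by the authors. Multiplied by merged exon lengths (GENCODE M21), 97.9% to 98.0% of nonzero values under 2000 reads were whole reads within 0.05, which gave depths and reads; whether a read means a pair is not known. Of 21899 rows, 22 repeats of 20 symbols were dropped, keeping the highest.

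KI was compared with WT by limma 3.58.1 (R 4.3.3) fitted to log2(RPKM + 1), trend and robust options on, over the 10104 genes that reached 1 RPKM in 3 or more libraries, and the fit was tested on simulated data. Log2 differences understate changes of low genes. Alternatives are given at the end; the GC correction subtracted a lowess (span 0.3) of each library's deviation on transcript GC content. Members, lists and most alternatives were chosen with earlier results of these data known. The rule named all 9 members, Rnf111, up to 4 genes per list by mean RPKM and the 3 nearest to Pim1, of which 1 is not reported here. Intervals from reads cover counting error only.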

Additional observations from a re-analysis of the deposited data

How the results depend on the processing

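Over all tested genes the count past an adjusted p under 0.05 was 0 with all 6 libraries by limma, and stayed 0 with a pseudocount of 0.1, no expression filter, a minimum of 5 RPKM, TMM scaling, quantile normalization, voom on recovered reads, the Y-linked covariate, the GC correction and each left-out library (0 to 0). It was 93 with library weights and 41 without KI 2 and WT 3 together. In the 7 wider lists the count was 0 in the same settings and 1 without KI 2 and WT 3, and 0 to 0 with each left-out library. The count of the 9 genes with separate groups was 3. Of all 10104 tested genes, 384 had KI wholly above and 277 wholly below. With each left-out library the count was 3 to 4, with 566 to 1212 tested genes above and 425 to 1599 below. At a minimum of 5 RPKM, where only 5 of the 9 are tested, it was 1, with 189 of 5819 genes above and 167 below. Without KI 2 and WT 3, where fewer libraries have to separate, it was 5, with 1877 of 10104 genes above and 2454 below. Replicate numbers did not pair the libraries: deviations of same-numbered libraries correlated at 0.124, -0.0507 and 0.00540, and KI 1 correlated best with WT 2 (0.137). The fit with the replicate block made 0 calls; 139 genes had an unadjusted p under 0.05, against 121 without it. Of 149 differences of the 9 genes under alternatives, 144 moved by less than the spread between replicates and 5 by more. That spread includes WT 3 and is wide where WT 3 stands apart, so the 144 are no measure of stability. Without WT 3, Pim3 went from 0.71 to -0.05 and Max from -0.46 to -0.92, and both count among the 144. The 5 that moved by more were Pim1 (1.09) and Pim2 (0.25) with library weights, Pim2 with voom (1.0), and Socs3 with a pseudocount of 0.1 (1.64) and with voom (2.09). The values with voom and with a pseudocount of 0.1 are on scales that compress low levels less than log2(RPKM + 1). The spread they were judged against is on log2(RPKM + 1), so these comparisons are not like for like. The cause of these shifts was not tested. Pim1, Pim2, Socs3 and Myc kept a positive and Max a negative difference in all alternatives run; Pim3 turned in 1, Stat3 in 3, Mxd3 in 1 and Mycn in 6. Depth limits Socs3, Mxd3 and Pim2 most.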
